A study of Mus musculus with 54 samples.

Results

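The 8 genes Lrrk2, Pink1, Park7, Vps35, Atp13a2, Tmem175, Scarb2 and Fbxo7, causal or risk genes of Parkinson disease, were followed through cultured mouse microglia that had or had not been given alpha-synuclein (aSyn). The rule that picks them names symbols and uses no measured value, although the list was drawn up with earlier results of these data known. All 8 were found among the 16632 genes of the deposited count table and passed the filter on low counts with which 13169 genes were tested. Primary microglia, phagocytes that live in the brain, came from newborn C57BL/6 mice, were grown in medium with L929 supernatant and were shaken off a layer of astrocytes. All groups shared this strain and origin, and no genetic change is named in the labels. The donor cells had received 1 µM Atto-488-labelled aSyn for 14 h, and the acceptor cells carried the dye CellTracer Violet and had received no aSyn of their own. Donors and acceptors were mixed, kept together for up to 300 min and separated again by flow sorting, so that both sorted populations had shared a dish with the other.

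The 54 libraries fell into 14 groups. Untreated_Ctrl cells gave 6 libraries, of which the same-numbered ones were summed to 4 samples, and aSyn_Donor cells, treated with aSyn and labelled with no co-culture time, gave 4. Acceptors and Donors were labelled 0, 15, 30, 60, 150 or 300 min, although the protocol lists no co-culture of 0 min. Acceptors at 0 and 300 min and donors at 0 and 60 min had 3 samples, and every other group had 4, which gives 52 samples with 22 donor and 22 acceptor samples among them. Whether untreated and aSyn_Donor cells passed the sorter is not stated. The labels name no animal or culture for a replicate number, so p-values measure the spread between these samples, which may be technical. Number 1 was at passage 3, number 2 at passage 1, and numbers 3 and 4 at passage 2. Number 4 carries a separate run of facility identifiers. The main fits held no term for the replicate number, and fits with the number as a block treated all 4 numbers alike.

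Counts came from a 3′-end protocol that reads 50 bp near the poly(A) tail, with 7807389 to 15537493 counts a library and a median of 13036175.5. Levels are CPM (counts scaled to a common library size), as mean ± SD over the samples of a group. A count of 3 was worth 0.113 to 0.387 CPM. All 10 microglia markers had counts in each of the 52 samples and summed to between 1981 and 8835 CPM, although the homeostatic markers P2ry12 (16 to 283 counts) and Tmem119 (10 to 176 counts) were low. Astrocyte markers summed to 7.59 to 139 CPM, with Gfap at 0 in 18 and Aqp4 at 0 in 27 of the 52 samples, and their highest sum was in untreated cells. Border macrophage and monocyte markers summed to 564 to 1066 CPM, carried by Ms4a7 (mean 619.5 CPM). Mrc1 (112 to 4342 counts, mean 124.4 CPM) and Pf4 (237 to 1997 counts, mean 80.2 CPM) were also counted in all 52 samples. Cd163 was at 0 in 42 samples and Lyve1 in 29. Oligodendrocyte lineage markers summed to 106 to 696 CPM, neuron markers to 0.282 to 30.3 CPM, and the 4 fibroblast and endothelium markers present to 0.0811 to 25.1 CPM. In such bulk samples fewer cells of a type and less RNA per cell cannot be told apart.

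Inherited Parkinson disease points at a pair of cell functions that matter in phagocytes. In the first, damaged mitochondria are recognised and removed: Pink1 is a kinase that accumulates on damaged mitochondria and marks them for removal, Park7 encodes DJ-1, an oxidation-sensitive protective protein, and Fbxo7 is the substrate adaptor of a ubiquitin ligase complex that also takes part in mitophagy. In the second, cargo such as aSyn is sorted through endosomes and broken down in lysosomes: Scarb2 encodes LIMP-2, a receptor that carries an enzyme to the lysosome, Atp13a2 exports polyamines from lysosomes, Tmem175 is an ion channel of the lysosomal membrane, Vps35 is a core subunit of the retromer that recycles endosomal cargo, and Lrrk2 is a kinase of Rab GTPases on these membranes.

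Promoters were matched for 7 of the 8 genes, Vps35 not among them, in RefSeq tables of build GRCm38.p6, from 250 bases before to 50 after the annotated start. The promoters of Pink1 (chr4:138326247-138326546, minus strand), Park7 (chr4:150909872-150910171, minus strand) and Scarb2 (chr5:92505608-92505907, minus strand) are printed because the results below turn on these genes. They are written 5′ to 3′ on the gene's strand, with the motif match in capitals.

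Pink1: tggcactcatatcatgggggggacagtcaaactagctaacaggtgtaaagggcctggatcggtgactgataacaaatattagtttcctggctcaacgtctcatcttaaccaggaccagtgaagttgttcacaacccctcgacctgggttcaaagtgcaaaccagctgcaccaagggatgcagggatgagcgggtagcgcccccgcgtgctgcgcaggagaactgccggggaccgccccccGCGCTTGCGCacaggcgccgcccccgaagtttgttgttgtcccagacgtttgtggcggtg

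Park7: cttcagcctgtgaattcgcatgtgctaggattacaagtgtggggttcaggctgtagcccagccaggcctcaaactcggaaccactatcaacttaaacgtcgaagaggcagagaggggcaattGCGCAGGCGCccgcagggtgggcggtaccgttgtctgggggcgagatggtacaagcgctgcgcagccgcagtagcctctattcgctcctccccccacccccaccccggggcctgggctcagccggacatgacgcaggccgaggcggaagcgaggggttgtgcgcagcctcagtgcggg

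Scarb2: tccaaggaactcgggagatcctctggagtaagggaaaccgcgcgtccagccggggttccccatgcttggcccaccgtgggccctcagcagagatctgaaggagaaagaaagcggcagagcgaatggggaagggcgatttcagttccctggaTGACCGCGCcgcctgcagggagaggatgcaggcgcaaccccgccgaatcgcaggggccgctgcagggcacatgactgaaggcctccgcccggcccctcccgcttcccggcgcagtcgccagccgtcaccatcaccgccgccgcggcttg

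Capitals in Pink1 and Park7 mark a match to the NRF1 motif (GCGCA and GCGC with any 1 base between them), on the minus strand at -10 to -1 for Pink1 and on the plus strand at -128 to -119 for Park7, where NRF1 is a regulator of nuclear genes for mitochondria. Capitals in Scarb2 mark a match to the antioxidant response element TGACNNNGC, the site type of Nfe2l2, at -99 to -91. Both strands were searched for 6 motifs, and the share of all 32851 promoters with a match was 4.6% for NRF1, 12.4% for the antioxidant response element, 7.15% for the E-box CACGTG used by TFEB, 3.65% for the FOXO motif GTAAACA, 8.86% for the ETS motif CCGGAAG and 7.51% for the CRE motif TGACGT. Tmem175 held matches to the antioxidant response element (-17 to -9), NRF1 (37 to 46) and CRE (-65 to -60) motifs. Fbxo7, which has 2 listed promoters, held a pair of NRF1 matches in the first (-126 to -117 and -61 to -52) and an E-box in the second (43 to 48). No match was found in Lrrk2 or Atp13a2. A match is a string of letters in this window and was not tested for binding.

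In mm10 coordinates Pink1 lies at chr4:138313409-138326307, Park7 at chr4:150897133-150914437, Atp13a2 at chr4:140986873-141007330, Scarb2 at chr5:92441314-92506833, Tmem175 at chr5:108629770-108648782, Vps35 at chr8:85260392-85299802, Fbxo7 at chr10:86021972-86051873 and Lrrk2 at chr15:91673175-91816120. The annotated 3′ end of Tmem175, where these reads fall, overlaps Dgkq on the opposite strand by 2090 bp. Use of strand in the counting is not given in the sources used here, so counts of Tmem175 may hold reads of Dgkq. Vps35 overlaps Orc6 on the opposite strand by 171 bp away from its 3′ end, and the remaining overlaps are with short or antisense RNA genes that the count table does not list.

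Pink1 was the gene of mitochondrial quality control whose level separated the populations most. Its mean was 60.8 ± 9.08 CPM in untreated and 55.2 ± 18.1 CPM in aSyn_Donor cells. Acceptors held 73.4 ± 6.82, 78.8 ± 18.6, 68 ± 10.6, 78.3 ± 10.6, 79.4 ± 10.7 and 63.7 ± 5.47 CPM at 0, 15, 30, 60, 150 and 300 min. Donors held 62.6 ± 8.86, 54.1 ± 18.7, 55.1 ± 22.4, 53.5 ± 21.1, 54.6 ± 21.7 and 47.9 ± 14.7 CPM at the same times. All 6 acceptor groups stood at the top of the order and 5 of the 6 donor groups at its end, with donors at 0 min, untreated and aSyn_Donor cells between them. The 0 min groups hold no sample of number 4, in which Pink1 was lowest in donors. The highest group, acceptors at 150 min (69.8 to 94.6 CPM), was 1.66 times the lowest, donors at 300 min (27.5 to 61.7 CPM), and these did not overlap. They were picked as the extremes of 14 groups. The share of all genes whose extreme groups do not overlap was not counted, so no conclusion is drawn from it.

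Park7 varied less. Untreated cells were highest with 91.6 ± 13.1 CPM, and aSyn_Donor cells held 78.8 ± 13 CPM. Acceptors held 89.8 ± 7.72, 85.5 ± 11.9, 83 ± 12.8, 84.3 ± 16.6, 87.2 ± 12.8 and 78.9 ± 5.79 CPM from 0 to 300 min. Donors held 76.2 ± 10.2, 74.3 ± 15.7, 79.7 ± 14.4, 74.2 ± 16.3, 77.3 ± 14.5 and 80.1 ± 16.6 CPM. Untreated cells were 1.23 times the lowest group, donors at 60 min, and their samples overlapped.

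Fbxo7 showed no order by population. It was at 31.1 ± 8.43 CPM in untreated and, as its lowest group, at 25.9 ± 4.03 CPM in aSyn_Donor cells. Acceptors held 32.5 ± 6.35, 28.9 ± 5.34, 32.5 ± 9.96, 27.2 ± 4.15, 26.6 ± 1.7 and 27.9 ± 5.8 CPM, and donors 30.4 ± 1.64, 29.9 ± 1.96, 31.6 ± 0.964, 29.3 ± 1.33, 28 ± 4.97 and 30.6 ± 3.82 CPM. The highest group, acceptors at 30 min, was 1.26 times the lowest and overlapped it.

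Among the lysosomal genes, Scarb2 stood at 176 ± 26.5 CPM in untreated and 156 ± 58.3 CPM in aSyn_Donor cells. Acceptors held 214 ± 39.5, 195 ± 28.1, 201 ± 38.4, 199 ± 28.4, 195 ± 19.1 and 171 ± 41.2 CPM. Donors held 204 ± 29.9, 169.6 ± 72.3, 171 ± 75, 175 ± 90.8, 139.8 ± 44.9 and 147 ± 59 CPM. Acceptors at 0 min were 1.53 times donors at 150 min, the lowest group, with overlapping samples. These groups hold different numbers. Acceptors at 0 min lack number 4, which was at 80.1 CPM in donors at 150 min, where the other numbers were at 130.4 to 174.5 CPM. In donors from 15 to 300 min number 4 was far below the other numbers, as described below.

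Atp13a2 was at 183 ± 31.7 CPM in untreated and 198 ± 79.9 CPM in aSyn_Donor cells. Acceptors held 198 ± 26.6, 173 ± 40.9, 184 ± 43.1, 185 ± 36.5, 178 ± 57.9 and 165 ± 53.6 CPM, and donors 204 ± 20.2, 183 ± 69.7, 179 ± 68.3, 142 ± 58.9, 191 ± 69.9 and 186 ± 58 CPM. The extremes were both donor groups, 0 min being 1.44 times 60 min. These groups hold different numbers, since the first lacks number 4, the lowest for this gene, and the second lacks number 2, the highest. In the shared numbers 1 and 3 Atp13a2 was at 210.9 and 182 CPM at 0 min and at 183 and 168 CPM at 60 min.

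Tmem175 was the steadiest of the lysosomal genes, with 40.3 ± 2.36 CPM in untreated cells as its highest group and 35.8 ± 5.88 CPM in aSyn_Donor cells. Acceptors held 38.1 ± 3.79, 35.8 ± 3.75, 35.5 ± 6.8, 34.2 ± 4.7, 39.1 ± 6.19 and 39.2 ± 7.81 CPM, and donors 35.7 ± 3.67, 35.2 ± 8.6, 35.6 ± 4.65, 34.7 ± 5.91, 35.6 ± 6.15 and 35.6 ± 6.2 CPM. Its highest group was 1.18 times its lowest, acceptors at 60 min, and overlapped it.

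Vps35, the endosomal recycling gene, was at 194 ± 35.1 CPM in untreated and 189.7 ± 28.9 CPM in aSyn_Donor cells. Acceptors held 157 ± 4.3, 182 ± 42.8, 172 ± 52.8, 192 ± 51.8, 202 ± 31.2 and 180.5 ± 36.1 CPM, and donors 155 ± 23, 180 ± 35.7, 179.6 ± 43.9, 187 ± 62.9, 196 ± 24.3 and 193 ± 33 CPM. Both 0 min groups stood at the end of the order, and both lacked number 4, in which Vps35 was high. Acceptors at 150 min were 1.30 times donors at 0 min, and these overlapped.

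Lrrk2 was close to the limit of detection, with 0 to 76 counts a sample and 696 counts in all 52. Untreated cells held 1.45 ± 1.15 CPM and aSyn_Donor cells 0.739 ± 0.692 CPM. Acceptors held 0.963 ± 0.213, 1.24 ± 0.219, 1.43 ± 0.239, 0.986 ± 0.49, 1.53 ± 0.965 and 1.05 ± 0.792 CPM, and donors 0.367 ± 0.242, 0.769 ± 0.343, 0.844 ± 0.53, 0.619 ± 0.594, 0.718 ± 0.413 and 1.16 ± 0.697 CPM. Acceptors at 150 min were 4.16 times donors at 0 min, and their samples overlapped. Donors at 0 min lack number 4, which was the highest sample of acceptors at 150 min with 2.53 CPM.

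For each of the 8 genes, none of the 13 pairs of groups that were neighbours in the order of means was free of overlap. Neighbours in a sorted order of many small groups lie close together, so such overlap is likely for any gene. Its share over all genes tested was not counted, and no conclusion about the 8 genes is drawn from it.

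**Figure D1:**
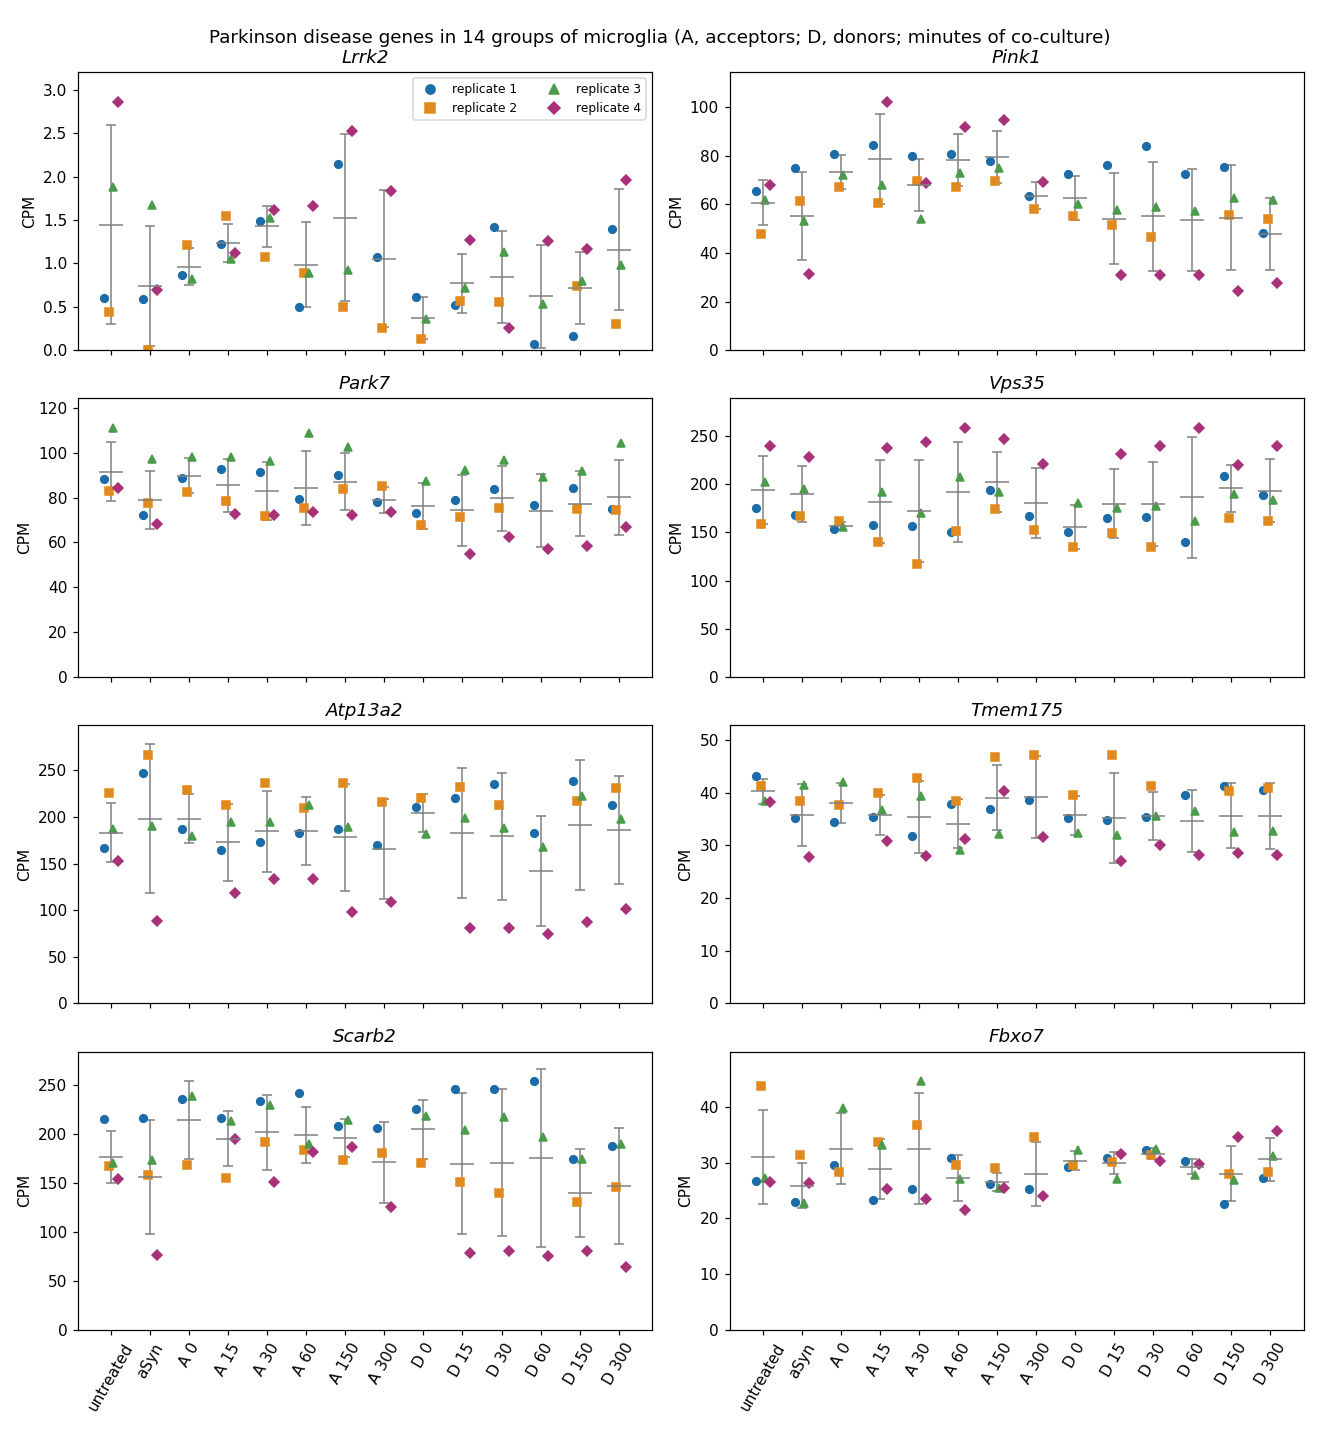
Level of each gene (CPM, y axis) in 14 groups of microglia (x axis, A for acceptors and D for donors with minutes of co-culture). Points are samples by replicate number, lines and bars the group mean ± SD. In every group that holds it, replicate 4 (diamonds) is the lowest sample for Atp13a2 and the highest for Vps35, and in aSyn_Donor and donor groups it is the lowest for Pink1 and Scarb2.

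Of the direct partners of these genes, the retromer subunits Vps26a (99.8 to 180.2 CPM), Vps29 (91.3 to 181 CPM) and Vps26b (33.8 to 53.8 CPM), the Lrrk2 partner Rab29 (25.2 to 80.9 CPM) and the Fbxo7-binding proteasome inhibitor Psmf1 (21.1 to 44.6 CPM) were counted in all 52 samples.

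The first comparison asked what aSyn exposure alone did, by setting aSyn_Donor against untreated cells. No gene of the 8 was called, where a call is an adjusted p under 0.05 in edgeR's quasi-likelihood test with Benjamini-Hochberg adjustment over all genes tested, which called 2.5% of them. None of the 8 was under 0.05 unadjusted, and DESeq2 called none either. The log2 differences, aSyn_Donor minus untreated, were lower for 7 of the 8, and their median of -0.17 compares with -0.04 over all genes tested.

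Park7 was at 88.2, 83.2, 111 and 84.1 CPM in untreated numbers 1 to 4 and at 72.1, 77.5, 97.4 and 68.2 CPM in the same-numbered aSyn_Donor samples. It was lower in 4 of 4 pairs, although the groups overlapped. The log2 difference was -0.22 (SE 0.172). With the replicate number as a block, it was -0.22 (SE 0.0758) with an adjusted p of 0.0346 in edgeR, against a background of 19.2% of genes called in that fit and 10.2% called lower. Without any 1 of the 4 numbers the blocked call was lost: edgeR's adjusted p ran from 0.11 to 0.171 and the log2 difference from -0.23 to -0.18.

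Pink1 was at 65.6, 47.7, 61.9 and 68 CPM in untreated numbers 1 to 4 and at 74.8, 61.3, 53.3 and 31.5 CPM after aSyn. It was higher in numbers 1 and 2 and lower in numbers 3 and 4, by the widest margin in number 4. The log2 difference of -0.14 (SE 0.284) became 0.13 without number 4.

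Scarb2 was at 215, 167, 170.1 and 154 CPM in untreated numbers 1 to 4 and at 216, 158, 174 and 76.8 CPM after aSyn. Numbers 1 to 3 were within a few CPM of their partners, and only number 4 moved far. The log2 difference was -0.18 (SE 0.33), and without number 4 it was 0.0004154. Atp13a2 likewise was at 167, 225.9, 187 and 153 CPM before and 247.1, 266.7, 191 and 88.6 CPM after, higher in 3 numbers and lower in number 4, with a log2 difference of 0.11 (SE 0.341).

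Lrrk2 was at 0.605, 0.436, 1.89 and 2.86 CPM in untreated numbers 1 to 4 and at 0.589, 0, 1.67 and 0.698 CPM after aSyn. It was lower in 4 of 4 pairs with overlapping groups and a log2 difference of -0.98 (SE 0.738). The remaining log2 differences were -0.27 (SE 0.171) for Fbxo7, -0.17 (SE 0.165) for Tmem175 and -0.03 (SE 0.209) for Vps35. Fbxo7 too was lower in 4 of 4 pairs, by log2 differences from -0.479 to -0.007038, and Tmem175 and Vps35 in 3 of 4. The share of all genes lower in 4 of 4 aSyn pairs was not counted, so these pair counts are descriptions. The 95% intervals, from -0.60 to 0.07 for Fbxo7, -0.49 to 0.15 for Tmem175 and -0.44 to 0.38 for Vps35, leave room for changes in either direction. Astrocyte, neuron and oligodendrocyte lineage markers were also lower after aSyn, with median log2 differences of -2.14 over 8, -1.59 over 5 and -1.87 over 9 tested markers. None of them was called without the block, and 5, 1 and 4 were called lower with it. Of all genes, 0.896% were called lower without the block and 10.2% with it. The part of these markers in the differences of the 8 genes was not tested.

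The second comparison set donors against acceptors, averaged over the 6 labelled times, 0 min included. Pink1 was lower in donors and was the only one of the 8 genes called, in a fit that called 25.6% of all genes and 12.9% lower. Across the 22 acceptor samples its lowest, median and highest levels were 54.1, 71.1 and 102 CPM, and across the 22 donor samples 24.4, 56.4 and 84 CPM. The populations overlapped. The log2 difference, donors minus acceptors, was -0.43 (SE 0.122, edgeR adjusted p 0.00798), which is 0.743 times the acceptor level. DESeq2 also called Pink1 and no other of the 8. Over all 8 genes, 6 were lower in donors, 2 were under 0.05 unadjusted, and the median log2 difference was -0.10 against -0.02 over all genes tested.

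Number 4 carried most of the Pink1 difference. Acceptors of number 4 held 102, 68.7, 91.8, 94.6 and 69.2 CPM at 15, 30, 60, 150 and 300 min. The same-numbered donors held 31.1, 31.1, 30.9, 24.4 and 27.5 CPM, all below every donor sample of the other numbers. The ratio of donor to acceptor means was 0.34 in number 4 and 0.873 in numbers 1 to 3.

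In numbers 1 to 3 the difference was small but mostly in the same direction. At 15 min acceptors held 84.5, 60.6 and 68 CPM and donors 76.4, 51.5 and 57.7 CPM. At 150 min acceptors held 78.1, 69.8 and 75.2 CPM and donors 75.4, 55.6 and 62.8 CPM. Donors were lower in 19 of all 21 same-numbered pairs, the exceptions being numbers 1 and 3 at 30 min. The mean log2 difference by number was -0.14, -0.31, -0.20 and -1.54. Without number 4 the log2 difference was -0.17 and was not called (edgeR adjusted p 0.131). That fit called none of the 8 genes and 20.9% of all genes, with 2 of the 8 under 0.05 unadjusted.

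**Figure D2:**
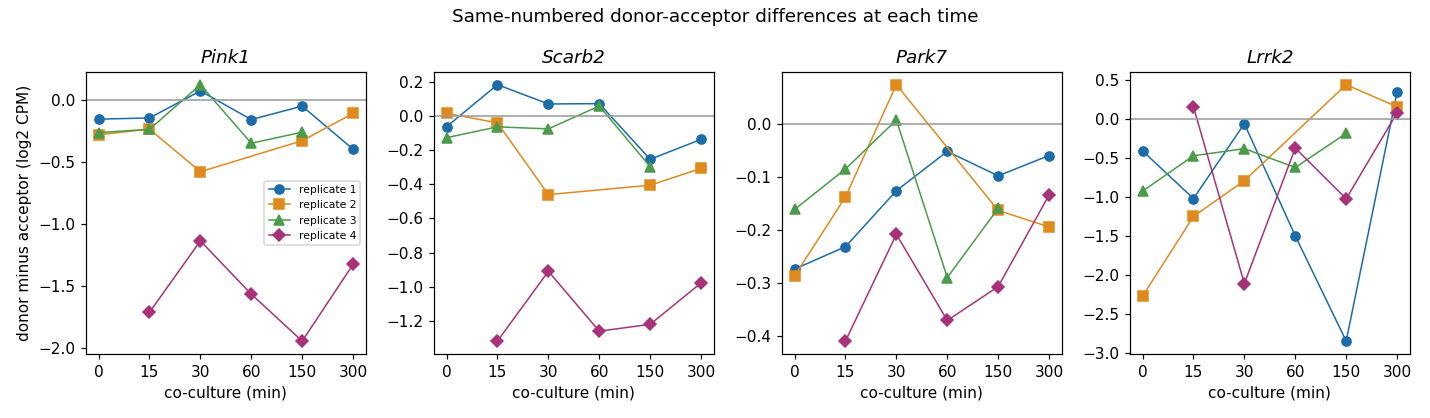
Same-numbered donor minus acceptor differences (log2 CPM, y axis, each panel on its own scale) at each co-culture time in minutes (x axis, times evenly spaced) for 4 genes, lines joining a replicate number. Replicate 4 lies between -1.14 and -1.95 for Pink1 and at -0.91 or lower for Scarb2, while the other numbers lie between -0.58 and 0.18. For Park7, 19 of 21 points are below 0, and for Lrrk2 16 of 21.

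With the replicate number as a block, 4 of the 8 genes were called lower in donors, Pink1, Park7, Scarb2 and Lrrk2, in a fit that called 44.3% of all genes and 24% lower. The share of the 8 that was called is close to the 44.3% called in either direction and above the 24% called lower. Such a count over 8 genes, in a fit that treats the times of a number as independent, is no finding about the group. Without number 4 the blocked fit called 3 of the 8, Pink1, Park7 and Lrrk2, and 35.6% of all genes. The log2 differences of the blocked fit were -0.48 for Pink1 (SE 0.107, edgeR adjusted p 2.83e-04) and -0.18 without number 4 (adjusted p 0.00777).

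Park7, the DJ-1 gene, had a small difference in each number. Its lowest, median and highest levels were 71.7, 83.2 and 109 CPM in acceptors and 54.6, 75.1 and 104.5 CPM in donors. Same-numbered pairs were lower in donors in 19 of 21 cases, with numbers 2 and 3 at 30 min as the exceptions, and the mean log2 difference by number was -0.14, -0.14, -0.14 and -0.29. Without the block the log2 difference was -0.14 (SE 0.0742, edgeR adjusted p 0.169). With the block it was -0.17 (SE 0.0328, adjusted p 5.22e-05), and without number 4 it was -0.12 (adjusted p 0.00867).

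Scarb2 followed the pattern of Pink1. Acceptors of number 4 held 195, 151, 182, 187 and 126 CPM from 15 to 300 min, and donors of number 4 held 78.1, 80.3, 75.8, 80.1 and 63.7 CPM. In numbers 1 to 3 acceptors ranged from 155 to 241.1 CPM and donors from 130.4 to 253.4 CPM, so the populations overlapped fully there. The donor to acceptor ratio of means was 0.45 in number 4 and 0.94 in numbers 1 to 3, and the mean log2 difference by number was -0.02, -0.24, -0.10 and -1.14. Without the block the log2 difference was -0.23 (SE 0.142, edgeR adjusted p 0.239). It was -0.33 with the block (SE 0.0856, adjusted p 0.00161) and -0.10 with the block and without number 4, which ended the call (adjusted p 0.0642).

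Lrrk2 was lower in donors in 16 of 21 pairs. Its lowest, median and highest levels were 0.256, 1.10 and 2.53 CPM in acceptors and 0.0768, 0.665 and 1.96 CPM in donors, and the populations overlapped over most of that range. The mean log2 difference by number was -0.91, -0.74, -0.51 and -0.65. The fit without the block gave -0.73 (SE 0.322, edgeR adjusted p 0.0883), and the blocked fit -0.80 (SE 0.279, adjusted p 0.0174). The blocked call was lost without number 1 (adjusted p 0.0531) and without number 2 (adjusted p 0.0734).

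The other 4 genes did not pass the test in either fit. The blocked log2 differences and 95% intervals were -0.01 (-0.08 to 0.07) for Vps35, -0.04 (-0.16 to 0.09) for Atp13a2, -0.05 (-0.15 to 0.04) for Tmem175 and 0.05 (-0.08 to 0.18) for Fbxo7. These intervals treat the times of a number as independent and are too narrow for the spread between numbers. By number the mean log2 difference was 0.29, -0.02, -0.02 and -0.48 for Atp13a2. For Fbxo7 it was 0.10, -0.13, -0.19 and 0.43. Atp13a2 and Fbxo7 moved in opposite directions in number 4. Their donor to acceptor ratios of means there were 0.716 and 1.35, against 1.06 and 0.953 in numbers 1 to 3.

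**Figure D3:**
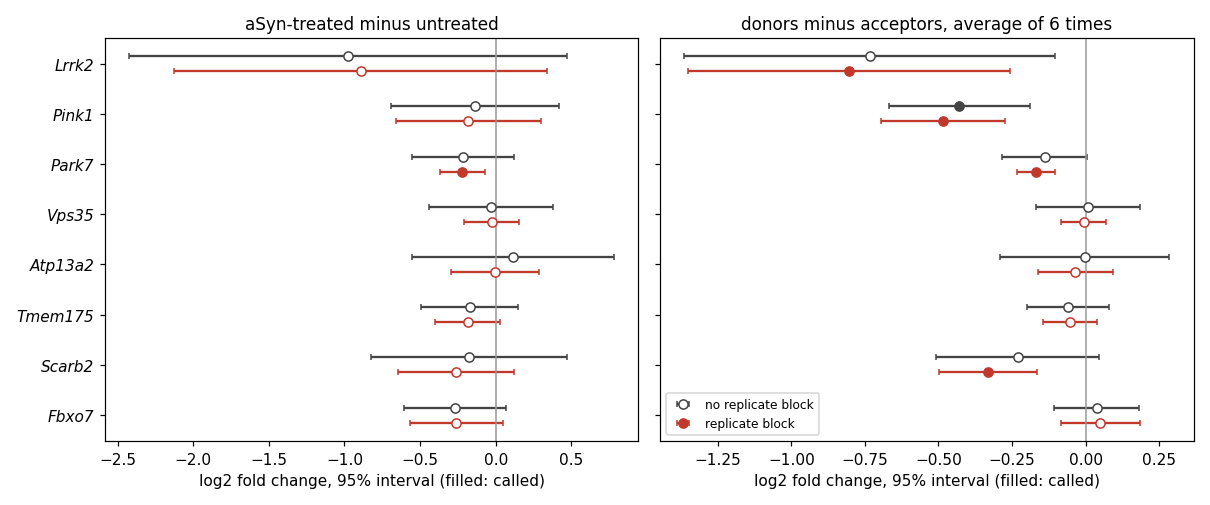
Log2 fold changes (x axis) of the 8 genes with 95% intervals for aSyn_Donor minus untreated cells (left) and donors minus acceptors averaged over 6 times (right), without (grey) and with (red) the replicate block; filled points are called. Of the 8 genes, the left panel has only Park7 called and only with the block, and the right panel has Pink1 called in both fits. Intervals in the right panel treat the times of a number as independent.

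Summed microglia markers, carried by a few abundant genes, moved with number 4 too. They were at 1981 to 2282 CPM in number 4 donors and 2216 CPM in its aSyn_Donor sample, against 3882 to 4488 CPM in its acceptors and 4507 CPM in its untreated sample. In numbers 1 to 3 they were at 4960 to 7830 CPM in donors and 5642 to 8835 CPM in acceptors. The ribosomal RNA precursor Rn45s took 13.4 to 20.7% of counts in number 4 donors and 16.1 to 22.1% in its acceptors, and 1.42 to 13.5% in donors and acceptors of the other numbers. Between donors and acceptors with the block, 4 of 10 microglia markers were called higher and 4 lower. That fit called 20.4% of all genes higher and 24% lower and treats the times of a number as independent. Of the other lists, 2 of 5 border macrophage and monocyte markers were higher and 1 lower, 1 of 5 neuron markers was higher and 2 lower, 1 of 4 fibroblast and endothelium markers was higher, 1 of 8 astrocyte markers was lower and 3 of 9 oligodendrocyte lineage markers were lower. Without the block the microglia list had 1 higher and 2 lower, beside 12.7% of all genes higher and 12.9% lower. With so few markers in a list, no conclusion is drawn from these counts. The part of these marker differences in the levels of Pink1, Scarb2 and Atp13a2 was not tested.

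Libraries of the same number at different times are not independent, so counts were also summed to 1 donor and 1 acceptor sample per number. In that fit edgeR called 0.0149% of all genes and none of the 8, none of them under 0.05 unadjusted, and with the replicate block 1.2% of all genes and again none of the 8, with 1 under 0.05 unadjusted. The log2 difference of Pink1 was -0.48 (adjusted p 0.616) without and -0.54 (adjusted p 0.247) with the block. Park7 was at -0.17 (adjusted p 0.222), Scarb2 at -0.37 (adjusted p 0.305) and Lrrk2 at -0.68 (adjusted p 0.171) with the block. An exact two-sided sign-flip test over the 4 number means cannot go below a p of 0.125, and Pink1, Park7, Scarb2 and Lrrk2, lower in all 4 numbers, reach it. Of all genes tested, 20.1% were lower and 15.8% higher in all 4 numbers.

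**Figure D4:**
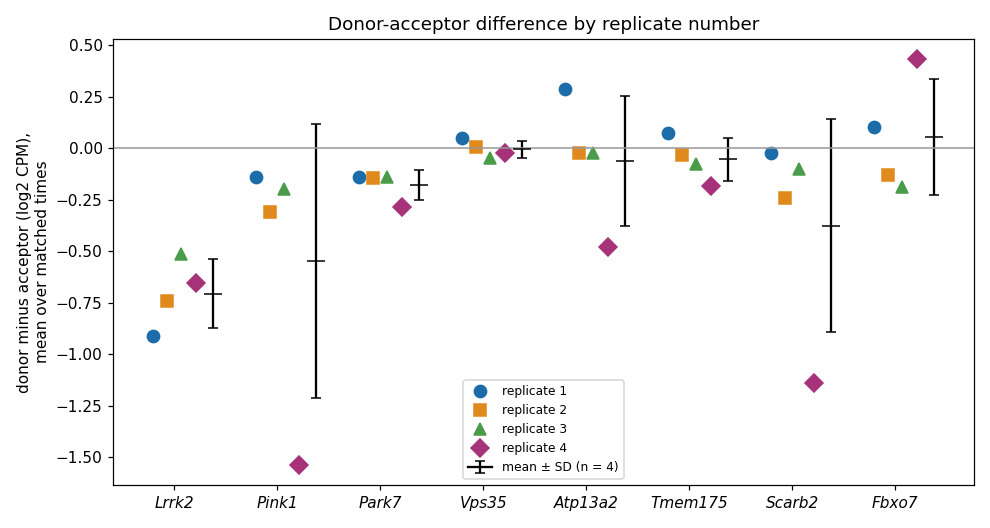
Donor minus acceptor difference (log2 CPM, mean over the 5 or 6 matched times, y axis) of each gene by replicate number, with the mean ± SD of the 4 numbers in black. Park7 lies between -0.14 and -0.29 in all 4 numbers, whereas for Pink1 and Scarb2 replicate 4 lies far below the rest.

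No single time gave a call. In donors against acceptors edgeR called 0 of 48 gene and time combinations, with none under 0.05 unadjusted, and DESeq2 called 0. The background was 0.251, 0.888, 0.805, 0.418, 0.167 and 0.0304% of genes called from 0 to 300 min. The log2 difference was below 0 for Pink1 and Scarb2 at all 6 times, for Park7 and Lrrk2 at 5, for Vps35 and Tmem175 at 4, and for Atp13a2 and Fbxo7 at 2. For Park7 the exception was 300 min, where only donors hold number 3. Its 3 same-numbered pairs there were all lower in donors.

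A further 6 comparisons set acceptors at each labelled time against untreated cells and share their untreated samples. Pink1 was at a higher mean in acceptors at all 6 times and Scarb2 at 5 of 6, but edgeR called 0 of 48 combinations, none of them under 0.05 unadjusted, and DESeq2 called 0. The background was 0, 0, 0.114, 0.0683, 0.137 and 0% of genes called. The log2 differences ran from -0.59 to 0.39. Donors against aSyn_Donor cells, which share the aSyn_Donor samples, gave 0 of 48 with none under 0.05 unadjusted and 0 by DESeq2, against a background of 0% at 0 to 150 min and 0.0304% at 300 min. There the log2 differences ran from -1.01 to 0.65, both extremes belonging to Lrrk2.

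Over time, none of the 8 genes was called by edgeR in donors (background 0.0607%), in acceptors (0.00759%) or in the donor-acceptor difference (0%), none was under 0.05 unadjusted, and DESeq2 called none. Among the 8 genes, the lowest unadjusted p of edgeR's F test was 0.412 in acceptors, for Fbxo7, and 0.538 in donors, for Lrrk2.

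For 5 of the 8 genes the replicate number took a larger unscaled share of the variance than the groups did. It took 82.8% of the variance of log2 CPM for Atp13a2, 77.6% for Vps35, 69.4% for Park7, 59.2% for Scarb2 and 54.6% for Tmem175, against a mean of 36.4% over all genes tested. For Lrrk2 (22.6%), Pink1 (21.7%) and Fbxo7 (16.2%) the share was below that mean. Group took a further 33.5% for Pink1, 28.5% for Lrrk2, 19.2% for Park7, 18.3% for Fbxo7, 16.6% for Scarb2, 11.5% for Tmem175, 9.09% for Vps35 and 2.98% for Atp13a2, against a mean of 26%. These shares are not scaled for the number of levels, and there were more groups than replicate numbers. Spread between samples alone therefore adds more to the group share. For Pink1, Lrrk2 and Fbxo7 the larger group share thus does not rank group above replicate number. The mean level of Atp13a2 by number was 198.5, 227, 193 and 105 CPM, lowest in number 4. That of Vps35 was 167, 151.5, 183 and 238.8 CPM, highest in number 4.

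**Figure D5:**
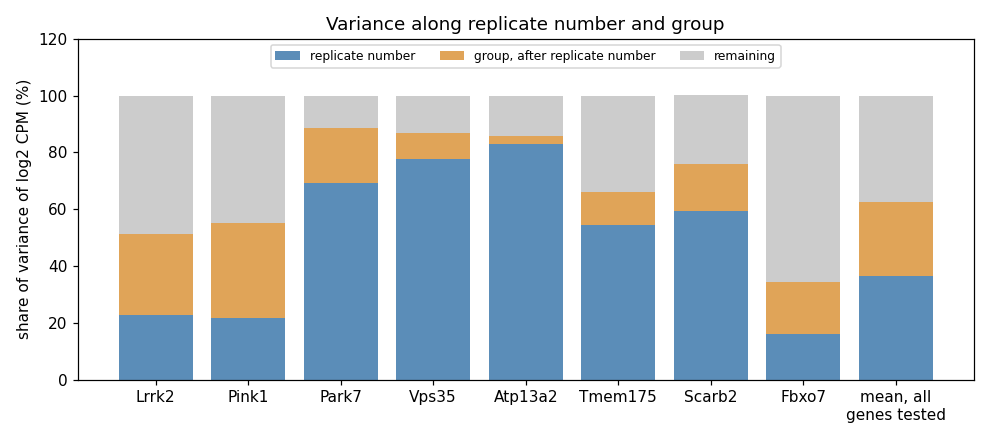
Share of the variance of log2 CPM (%, y axis) taken by replicate number, by group after replicate number, and remaining, for each gene and as the mean of all genes tested (x axis). Replicate number takes over 50% for Park7, Vps35, Atp13a2, Tmem175 and Scarb2.

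How the genes moved with each other was described over the 52 samples after subtracting each number's mean. The samples share libraries, groups and depth, so the coefficients are descriptions. Subtracting the means leaves in the split between donors and acceptors of number 4. Its mean log2 difference there was -1.54 for Pink1, -1.14 for Scarb2, -0.48 for Atp13a2, -0.29 for Park7 and 0.43 for Fbxo7. The part of this split in the coefficients, and in the genes most alike, was not tested. Pink1 and Scarb2 were closest (Pearson r 0.888), then Pink1 and Park7 (0.579) and Pink1 and Atp13a2 (0.545), and the lowest value was that of Vps35 and Fbxo7 (-0.417). Among 9123 other genes with a mean of at least 5 CPM, those most like Pink1 were Trf (0.907), Man2b1 (0.906) and Timp2 (0.899), and those most like Scarb2 were Syngr1 (0.917), Man2b1 (0.909) and Hexa (0.905). Trf encodes the iron carrier transferrin, Timp2 an inhibitor of metalloproteinases, and Man2b1 and Hexa lysosomal hydrolases. Man2b1 is on both lists.

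Vps35 was most like its retromer partner Vps29 (0.77), then Evi2a (0.752) and Actr2 (0.748). Park7 was most like the ribosomal protein genes Rps15a (0.802) and Rplp0 (0.791) and the mitochondrial adenylate kinase Ak3 (0.779), and Atp13a2 was most like Fads1 (0.834), Gm2a (0.834) and Gpr162 (0.8). Fbxo7 was most like Sumo3 (0.748), Akna (0.699) and Gtpbp1 (0.697). The coefficients were lower for Lrrk2, with Setd7 (0.666), Ubac1 (0.63) and Ntan1 (0.585), and for Tmem175, with Rab3il1 (0.584), Dab2 (0.571) and Tmem8 (0.57).

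Lists of genes that work with the 8, chosen by function, were read in the same fits. After aSyn alone, where 1.6% of all genes were called higher and 0.896% lower without the block, 1 of 36 tested genes of the PINK1 mitophagy list was called higher and none lower. It was Sqstm1, the cargo receptor p62, at 548 ± 103 CPM in untreated and 2014 ± 482 CPM in aSyn_Donor cells (n = 4 each), a log2 difference of 1.88 (SE 0.279, edgeR adjusted p 1.16e-04). Around Lrrk2, 2 of 29 tested genes of the Rab list rose, the Rab effector Rilpl2 by a log2 difference of 1.71 (adjusted p 0.00139) and the related small GTPase Rab32 by 0.84 (adjusted p 0.0255). In the lysosome list 1 of 31 rose, the protease Ctsl (0.77, adjusted p 0.00595). In the retromer list 1 of 27 rose, the endosomal recycling ATPase Ehd1 (1.116, adjusted p 0.0198), and none fell.

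Among Fbxo7 partners 1 of 9 rose, the signalling adaptor Traf2 (1.29, adjusted p 0.0205). Among 38 tested other Parkinson genes, Rab32 rose and 2 fell, the transcriptional organiser Satb1 (-2.23, adjusted p 0.0335) and the kinase Fyn (-0.93, adjusted p 0.0467). Satb1 was low, at 5.66 ± 4.41 CPM in untreated and 1.20 ± 0.590 CPM in aSyn_Donor cells. None of the 16 genes of the DJ-1 and redox list was called, although the median log2 difference of that list was 0.63 against -0.04 over all genes. With the block, 10 of these 16 were called higher and none lower, against 8.95% and 10.2% of all genes. The largest of them without the block was the mitochondrial superoxide dismutase Sod2, at 99.5 ± 32.4 CPM in untreated and 525 ± 589 CPM in aSyn_Donor cells (log2 difference 2.40 without the block, adjusted p 0.115, and 1.66 with it, adjusted p 0.00315).

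In donors against acceptors without the block, where 12.7% of all genes were called higher and 12.9% lower, each list held genes in both directions. These calls treat the times of a number as independent, and in counts summed per number 0.0149% of all genes were called without and 1.2% with the block. In the mitophagy list 5 of 36 genes were higher and 3 lower, Sqstm1 (log2 difference 0.82, adjusted p 1.31e-06) and the mitochondrial protease Lonp1 (0.37, adjusted p 4.07e-04) among those higher and the autophagy receptors Calcoco1 (-0.47, adjusted p 0.0182) and Optn (-0.38, adjusted p 0.00616) among those lower. In the retromer list 6 of 27 were higher and 2 lower. Sorl1, a retromer cargo receptor, was at 17.9 ± 2.25 CPM in acceptors and 31.6 ± 8.10 CPM in donors (n = 22 each), a log2 difference of 0.83 (adjusted p 1.60e-08). The mannose 6-phosphate receptor M6pr was higher (0.48, adjusted p 6.50e-06) and the sorting receptor Sort1 lower (-0.79, adjusted p 0.0349), while Vps35 itself did not pass the test.

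In the lysosome list 5 of 31 were higher and 3 lower. The chloride transporter Clcn7 (0.41, adjusted p 9.92e-04) and the saposin precursor Psap (0.28, adjusted p 0.00432) were higher, and the proton pump subunit Atp6v0a1 (-0.50, adjusted p 0.0349) and the ion channel Tpcn1 (-0.45, adjusted p 0.0306) were lower. In the redox list 6 of 16 were higher and 1 lower. Nqo1, a quinone reductase, was at 2.33 ± 1.62 CPM in acceptors and 9.33 ± 8.34 CPM in donors (log2 difference 2.01, adjusted p 6.73e-05), while Sod1 was lower (-0.29, adjusted p 2.78e-05). The Rab list had 7 of 29 higher and 4 lower, the Fbxo7 partners 2 of 9 higher and 2 lower, and the other Parkinson genes 8 of 38 higher and 8 lower. Gch1, which makes the cofactor of dopamine synthesis, was among the higher ones (0.68, adjusted p 7.07e-07).

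With the replicate block, which called 20.4% of all genes higher and 24% lower in donors, the list counts called higher and lower became 9 and 9 for mitophagy, 10 and 5 for retromer, 13 and 9 for lysosome, 12 and 2 for redox, 8 and 6 for Rab, 2 and 2 for Fbxo7 partners, and 10 and 12 for other Parkinson genes. For the mitophagy list, the Rab list and the Fbxo7 partners the share called is near the 44.3% called among all genes. After aSyn alone, beside 8.95% of all genes called higher and 10.2% lower, the blocked counts were 6 and 1, 1 and 5, 8 and 2, 10 and 0, 6 and 2, 1 and 3, and 5 and 6 in the same order. The median log2 difference of the lists in donors against acceptors without the block ran from -0.05 for Fbxo7 partners to 0.23 for redox, beside -0.02 over all genes tested. These genes share the libraries of the 8 and the shift of number 4 described above.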

How the data were processed

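RNA of primary mouse microglia was measured in 54 libraries. Raw counts of reads for each gene symbol were deposited by the authors, per the file headers. A normalized signal was deposited too, which the headers credit to DESeq2, and 100% of its values equalled the count over a size factor (0.634 to 1.34) within 0.051, and it was not used further. STAR, Partek, DESeq2 and build mm10 are named in the submitters' processing notes, and settings, annotation and use of strand are not given in the sources used here. All sample columns matched a label (unmapped columns: 0).

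Untreated libraries that share a number (2 and 4) differed by a chi-square per degree of freedom of 12.1 and 10.3, against 24.2 to 288 for other untreated pairs, and were summed, which leaves 52 samples. Tests used edgeR 4.0.16 in R 4.3.3 with TMM, filterByExpr by group (minimum count 10, 13169 genes kept) and the quasi-likelihood F test on all 14 groups, and limma 3.58.1 was loaded with it. Log2 CPM used a prior count of 2. The biological coefficient of variation was 38.1% without and 21% with the replicate block. The scripts were tested on simulated data. Standard errors follow from each fold change and F statistic, and floors and intervals of counts cover counting error only.

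Replicate numbers in the titles are shared across groups. In all 69 of 69 same-numbered pairs over 19 comparisons the deviations from group means correlated across genes above 0.1 (lowest 0.199, median 0.491, highest 0.764), so the numbers were taken to pair the samples.

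All 8 genes are named. From each pathway list (other Parkinson genes, Lrrk2 Rab pathway, retromer and WASH, PINK1 mitophagy, lysosome partners, Fbxo7 partners, DJ-1 and redox) the rule takes called genes, up to 3 per direction and comparison by log2 fold change, and direct partners. Some genes of these lists are not reported here. The genes most alike were the 3 with the highest Pearson r of log2 CPM. The genes, lists and cell type markers were chosen with earlier results of these data known. Promoters came from RefSeq (GRCm38.p6) and gene coordinates from an mm10 annotation. Alternatives were the replicate block, DESeq2 1.42.0 (test or size factors), no filter, only the groups compared, untreated libraries kept apart, Rn45s left out of library sizes, each number left out and counts summed per number.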

Additional observations from a re-analysis of the deposited data

Results flagged for a closer look

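Of 80 combinations of a gene and a group of 4 samples, 4 held a sample that stood apart from the other 3 by more than the 95% limit of Dixon's gap test, and chance flags about 1 in 20. Park7 in acceptors at 60 min was at 109 CPM in number 3, with the others between 73.6 and 79.5 CPM. Atp13a2 in donors at 150 min was at 87.4 CPM in number 4, with the others between 217 and 238.1 CPM. Scarb2 in acceptors at 60 min was at 241.1 CPM in number 1, with the others between 182 and 189 CPM. Fbxo7 in untreated cells was at 43.7 CPM in number 2, with the others between 26.6 and 27.3 CPM. Only 1 of the 4 was a sample of number 4.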

How the results depend on the processing

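The number of the 8 genes called in aSyn_Donor against untreated cells rose from 0 to 1 with the replicate block (Park7) and was 0 without each number in turn, with or without the block. In donors against acceptors it was 1 in the main fit and 4 with the replicate block, and with the block it was 3 over 15, 30 and 150 min only (33.7% of all genes called) and 3 to 4 without 1 number (35.6 to 41% of all genes). Leaving out each number without the block gave 0 to 1 calls, the 0 being without number 4. Counts summed per replicate number gave 0 calls without and 0 with the block. The blocked fits without a number and over 3 times were chosen after seeing the data. The block changed no other call: at single times and over time it left 0 calls, with 9, 2 and 1 of 48 combinations under 0.05 unadjusted in donors against acceptors, acceptors against untreated and donors against aSyn_Donor cells. Over all alternatives, those above included, 89 counts of calls were equal to the main count or within 1.5 times of it, and 10 were not. Outside donors against acceptors averaged over the times the main count was 0, so most of the 89 set 0 against 0 and say little about stability.

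The sign changed in 20 values, none of them called. In aSyn_Donor against untreated cells Pink1 ran from -0.27 to 0.13 without 1 number, positive without number 4 (0.13 with the block as well), and Scarb2 from -0.25 to 0.0004154, positive without number 4. Vps35 was at 0.003837 with the block and without number 1. Atp13a2 ran from -0.034 to 0.29 without 1 number, negative without number 1, and was at -0.002574 with the block, and at -0.16, -0.059 and -0.007228 with the block and without numbers 1, 2 and 3. In donors against acceptors Vps35 was at -0.006481 with the block, -0.006501 with the block and without number 1, and -0.003391 with the block and without number 4. Atp13a2 was at 0.009068 with no filter, 0.006018 with Rn45s left out, from -0.12 to 0.075 without 1 number (0.072 without number 2, 0.075 without number 4), 0.10 with the block and without number 4, and 0.005023 in summed counts. Fbxo7 ran from -0.058 to 0.12 without 1 number, negative without number 4, where it was -0.046 with the block. The cause of these changes was not tested. Depth limits Lrrk2 above all, whose 696 counts in 52 samples leave wide intervals. With only the groups compared in the fit, Lrrk2 did not pass the filter for aSyn_Donor against untreated cells. DESeq2 gave no adjusted p for 2 combinations in acceptors against untreated cells and for 1 gene in the test over time in donors.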

Other observations

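Further genes of the pathway lists were called with the replicate block, which called 8.95% of all genes higher and 10.2% lower. All log2 differences in this paragraph are aSyn_Donor minus untreated in the fit with the block, and adjusted p-values are those of edgeR. Among redox genes Nqo1 was higher by 1.61 (adjusted p 0.00341) and the glutathione synthesis subunit Gclm by 1.43 (adjusted p 9.82e-04). In the mitophagy list Bnip3 (0.55, adjusted p 0.0325) and the protease Lonp1 (0.60, adjusted p 4.54e-04) were higher and the deubiquitinase Usp8 was lower (-0.31, adjusted p 0.00753). In the lysosome list Clcn7 (0.66, adjusted p 0.00200) and the proton pump subunit Atp6v1h (0.35, adjusted p 0.0371) were higher, while the pump subunit Atp6v0a1 (-0.92, adjusted p 0.0194) and the phagocyte marker Cd68 (-0.47, adjusted p 0.0159) were lower.

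Of 27 tested retromer genes in the same fit, 1 was called higher, Ehd1 (1.02, adjusted p 0.00137), and 5 lower, among them Sort1 at -1.34 (adjusted p 0.0498), the Rab7 regulator Tbc1d5 at -0.64 (adjusted p 0.00433) and the sorting nexin Snx5 at -0.64 (adjusted p 0.0242). The median of the list was 0.05 against -0.05 over all genes. Around Lrrk2, Rab10 was higher (0.55, adjusted p 0.00171), and Rab29 (-0.35, adjusted p 0.0229) and Ywhaq (-0.23, adjusted p 0.0200) were lower. Of the Fbxo7 partners, Dlgap5 (-1.99, adjusted p 0.00342), Cdk6 (-0.49, adjusted p 0.0188) and Skp1a (-0.26, adjusted p 0.0465) were lower. Of the other Parkinson genes, Nod2 (1.01, adjusted p 0.0293) and Uchl1 (0.66, adjusted p 0.0185) were higher and Mapt (-1.51, adjusted p 0.0207) was lower. Some of these genes were low. Mapt was at 8.10 ± 7.37 CPM in untreated and 2.22 ± 1.31 CPM in aSyn_Donor cells. Nod2 was at 1.89 ± 1.04 and 3.99 ± 1.45 CPM, and Dlgap5 at 3.09 ± 1.26 and 1.07 ± 1.19 CPM, in the same order.

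In donors minus acceptors without the block, Gsr was higher by 0.83 (adjusted p 2.19e-04), Rilpl2 by 0.95 (adjusted p 1.22e-06), Rab32 by 0.74 (adjusted p 9.25e-08), Rab43 by 0.45 (adjusted p 4.57e-05), Ehd1 by 0.98 (adjusted p 5.25e-08), Traf2 by 0.53 (adjusted p 0.00377) and Psma2 by 0.25 (adjusted p 0.00875) in edgeR. That fit called 12.7% of all genes higher and 12.9% lower, and counts summed per number 0.0149% in either direction. Sod2 was higher by 1.52 (adjusted p 0.00108) and by 1.07 with the block, and Bst1 by 1.68 (adjusted p 0.00476) and by 0.90 with the block (adjusted p 0.0208). Their SD over donors exceeded the donor mean (550 ± 555 and 8.71 ± 11.7 CPM, n = 22). Lower were Spag9 (-0.38, adjusted p 0.0101), Rab5b (-0.26, adjusted p 0.00465), Ywhaq (-0.23, adjusted p 0.00496), Skp1a (-0.20, adjusted p 0.0154) and Dlgap5 (-1.14, adjusted p 0.0230). Sh3gl2 (-1.90, adjusted p 0.0303) was also called lower, at group means under 1 CPM in both populations. With the block only, in a fit that called 20.4% of all genes higher and 24% lower, Atp6v1h was called higher (0.43, adjusted p 1.46e-08). Called lower there were Glo1 (-0.19, adjusted p 0.00642), Galc (-0.49, adjusted p 6.14e-04), Bnip3l (-0.16, adjusted p 0.00493), Washc4 (-0.26, adjusted p 0.00104), Snx5 (-0.23, adjusted p 0.0338) and Rab39b (-1.51, adjusted p 0.0289). Rab39b was near the floor, at 0.292 ± 0.356 CPM in acceptors and 0.137 ± 0.237 CPM in donors.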
